A study of Rattus norvegicus with 8 samples.

Results

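The voltage-gated potassium channel genes described here were *Kcnq3* (GeneID 29682), *Kcnq5* (GeneID 259273), *Kcna1* (GeneID 24520), *Kcna2* (GeneID 25468), *Kcnb2* (GeneID 117105), *Kcnc1* (GeneID 25327), *Kcnc2* (GeneID 246153) and *Kcng1* (GeneID 296395), 8 of the 22601 genes listed in each library. They were found by their NCBI GeneID and belong to the Kv7, Kv1, Kv2 and Kv3 families and to the silent modifier subunits. The genes were chosen by family, with their FPKM in the Con., PTZ and Q808 groups of the same libraries in view, so that their differences between groups are given as a description, without a test. All 8 passed the limit of a mean of at least 0.1 FPKM (fragments per kilobase of transcript, scaled to the mapped fragments of a library) over the 8 libraries.

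Hippocampal RNA was sequenced from wild type Wistar rats with a labelled weight of 180 to 220 g, with 1 library per rat, in the Con. group (n = 3), the PTZ group (n = 3) and the Q808 group (n = 2). Pentylenetetrazole (PTZ), an antagonist of the GABA-A receptor, was used to kindle seizures in the PTZ and Q808 groups, with 14 injections of 35 mg/kg, 1 every 48 h over 28 days, and 60 mg/kg on the last day, whereas rats of the Con. group received saline. Daily gavage over a further 28 days then delivered the anticonvulsant compound Q808 at 30 mg/kg to the Q808 group and its solvent to the others. PTZ and Q808 rats were given a further low dose of PTZ on the day after the last gavage, and tissue was taken after that seizure test. Sex and age are not given in the sources used here.

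Potassium channels of these families open when the membrane is depolarized and carry the outward current that ends action potentials or holds back further firing. Kv7 subunits form the M-current, a slow current at rest and near threshold that muscarinic receptors suppress, and it is a brake on repetitive firing in hippocampal neurons. Kv1 channels act at axons and terminals, Kv2 channels carry the slow delayed rectifier of the soma and proximal dendrites, and Kv3 channels allow the fast spiking of parvalbumin interneurons. Mutations in *KCNA1*, *KCNA2*, *KCNC1* and *KCNQ3* are known causes of epilepsy or episodic ataxia in humans.

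Before the groups were compared, the libraries were checked against markers of neighbouring tissue. The summed level of 8 striatum markers was 1624 FPKM in Con.-3, 744 FPKM in PTZ-3 and 767 FPKM in Q808-1, and between 59.6 and 80.8 FPKM in the other 5 libraries. *Prox1*, the transcription factor that defines dentate granule cells, was 3.19, 2.84 and 4.04 FPKM in these 3 libraries and 12.2 to 16.6 FPKM in the other 5. *Ppp1r1b*, *Drd1* and *Drd2*, which define striatal projection neurons, were all above 0 in every library. Each group therefore held 1 library with high striatum markers. In bulk tissue, fewer cells of a type and less RNA per cell cannot be told apart. Libraries with low and high striatum markers are given separately beside the pooled values, and the second set has 1 library per group and no replicates. The summed level of 6 choroid plexus markers was 2528 and 2504 FPKM in Con.-1 and Con.-2, 6413 FPKM in Q808-2 and 91.5 to 491 FPKM in the other 5 libraries. From the step between the values of the least expressed genes, the depth of the libraries lay between 0.717 and 1.00 of that of the deepest library, Con.-2. All p-values measure the spread between these libraries.

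In the Con. group, *Kcnq5* had the highest mean level, 26.9 ± 7.46 FPKM (SD, n = 3), followed by *Kcna1* at 20.1 ± 8.998 FPKM, *Kcnq3* at 18.2 ± 4.23 FPKM, *Kcnc1* at 17.1 ± 2.99 FPKM, *Kcna2* at 16.4 ± 2.37 FPKM and *Kcng1* at 14.98 ± 3.59 FPKM. *Kcnc2* came next at 9.54 ± 2.53 FPKM and *Kcnb2* last at 1.25 ± 0.112 FPKM. FPKM is scaled by transcript length, so that levels can be set side by side between genes. The ranges of the libraries overlapped between each pair of neighbours in this order from *Kcnq5* down to *Kcng1*. Genes further apart in the order could be separate, as all Con. libraries of *Kcnq5* lay above those of *Kcnc1*, *Kcna2* and *Kcng1*. *Kcng1* and *Kcnc2* did not overlap in the Con. group, nor did *Kcnc2* and *Kcnb2*. In the PTZ group the order was headed by *Kcna1* at 22.0 ± 10.1 FPKM and *Kcnq5* at 21.2 ± 2.595 FPKM, and *Kcng1* was in the 7th place of 8, above *Kcnb2* alone.

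**Figure D1:**
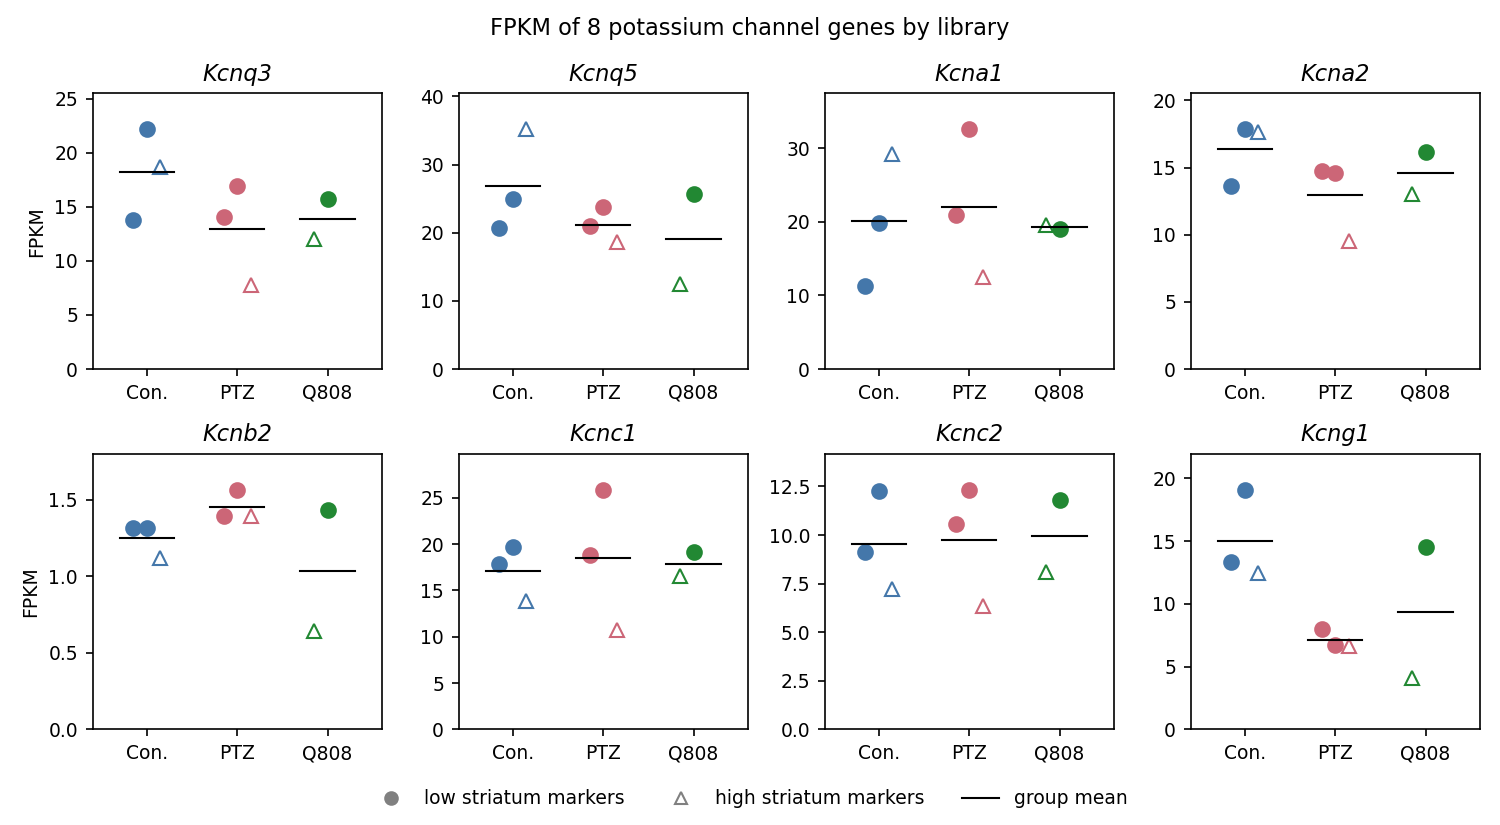
FPKM of the 8 channel genes in each library (y axis, from 0) for the Con., PTZ and Q808 groups (x axis). Filled circles are libraries with low striatum markers, open triangles those with high striatum markers, and the black line is the group mean. For *Kcng1* the 3 PTZ libraries lie between 6.66 and 7.98 FPKM, below the 3 Con. libraries at 12.5 to 19.1 FPKM, and the 2 Q808 libraries lie on either side of them at 4.11 and 14.5 FPKM.

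Of the 8 genes, *Kcng1* differed most between the PTZ and Con. groups. It encodes Kv6.1, a subunit that forms no channel alone and changes the gating of Kv2 channels when it joins them. *Kcng1* was at 13.4, 19.1 and 12.5 FPKM in Con.-1 to Con.-3 and at 7.98, 6.69 and 6.66 FPKM in PTZ-1 to PTZ-3. All 3 PTZ libraries were below all 3 Con. libraries. Groups that did not overlap were found for 9.15% of all genes, *Kcnb2* among them. Astrocyte and neocortex markers also stood apart between these groups, with summed levels of 946 to 1035 FPKM in the PTZ and 750.0 to 843 FPKM in the Con. libraries for 6 astrocyte markers, and 27.9 to 49.6 FPKM against 21.0 to 27.5 FPKM for 4 neocortex markers, and their part in the *Kcng1* level was not tested. The group means were 14.98 ± 3.59 FPKM (SD, n = 3) and 7.11 ± 0.753 FPKM (SD, n = 3), a log2 difference of -1.04 with a standard error of 0.20 in limma on log2(FPKM + 0.1). The difference was -1.12 in the libraries with low striatum markers and -0.90 between PTZ-3 and Con.-3. It lay between -1.16 and -0.86 when each library was left out in turn.

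In the Q808 group, *Kcng1* was at 4.11 FPKM in Q808-1 and 14.5 FPKM in Q808-2. One library was therefore below all PTZ libraries and the other within the range of the Con. libraries, and the mean of 9.32 ± 7.38 FPKM (SD, n = 2) describes neither. The pooled log2 difference from the PTZ group was 0.13 with a standard error of 0.51. It was 1.03 without Q808-1 and -0.77 without Q808-2, so that the sign was set by which library was used. In the libraries with low striatum markers, *Kcng1* differed by 0.98 between Q808-2 and the 2 PTZ libraries and by -0.13 between Q808-2 and the 2 Con. libraries. Between the libraries with high striatum markers, Q808-1 was lower than PTZ-3 by a log2 difference of -0.68 and lower than Con.-3 by -1.58.

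The choroid plexus markers also followed part of this order. With the exception of *Otx2*, which was listed at 0 in all libraries, the 5 markers had a lower mean in PTZ than in Con. libraries and a higher mean in Q808 than in PTZ libraries. Their summed level was 91.5 to 2528 FPKM in the Con. group, 277 to 491 FPKM in the PTZ group and 162 to 6413 FPKM in the Q808 group. *Kcng1* was highest in Con.-2, Q808-2 and Con.-1, at 19.1, 14.5 and 13.4 FPKM. These libraries also had the highest choroid plexus levels. Con.-3 had the lowest choroid plexus level of all libraries, with *Kcng1* at 12.5 FPKM. With the mean level of the choroid plexus list as a covariate, which was added once the values were known, the *Kcng1* difference between the PTZ and Con. groups was -0.96, and with the striatum list as a covariate it was -1.08. Between the Q808 and PTZ groups the difference with the choroid plexus covariate was -0.43, against 0.13 without it, so that the sign turned. The summed level of 8 oligodendrocyte markers was 13758 FPKM in Q808-1, where *Kcng1* was lowest, and 2681 to 7054 FPKM in the other 7 libraries, and its part in the *Kcng1* level was not tested.

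**Figure D2:**
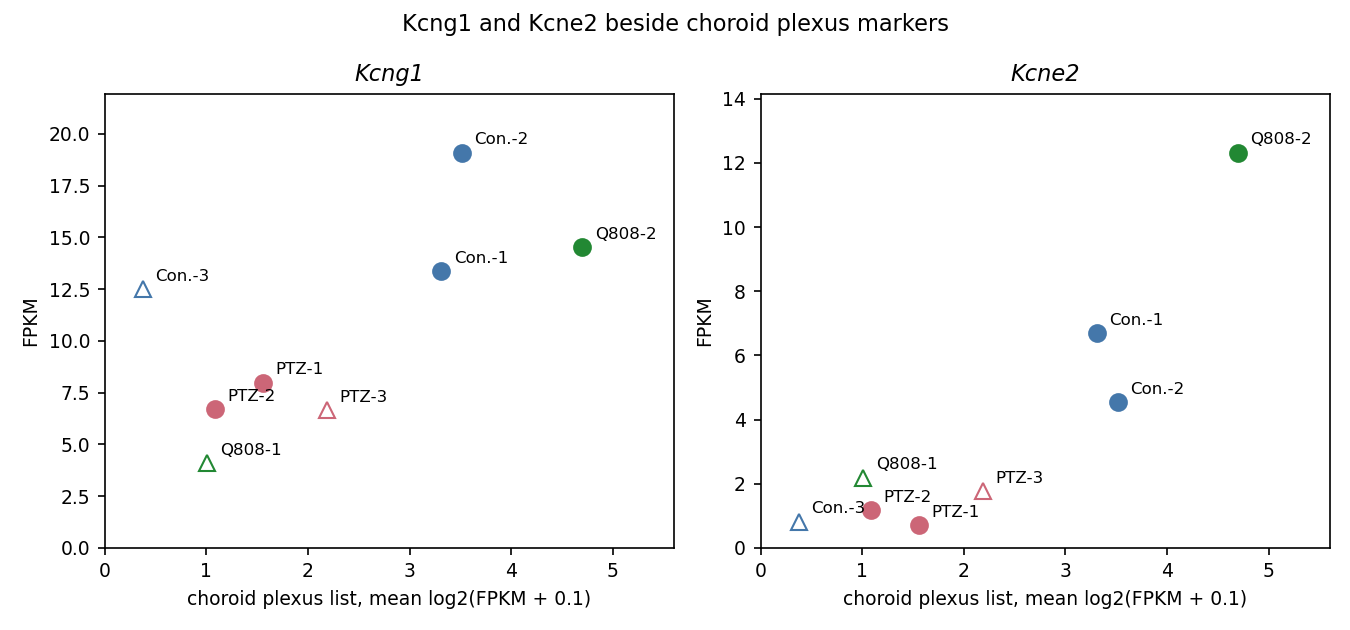
FPKM of *Kcng1* (left) and *Kcne2* (right) on the y axes, from 0, against the mean log2(FPKM + 0.1) of 6 choroid plexus markers on the x axes, with 1 point per library. Filled circles are libraries with low and open triangles those with high striatum markers. *Kcne2* is highest in Q808-2 at 12.3 FPKM, where the markers are highest. *Kcng1* is highest in Con.-2, Q808-2 and Con.-1, the libraries with the highest markers. It is at 12.5 FPKM in Con.-3, where the markers are lowest.

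Apart from *Kcng1*, the Kv2 group includes *Kcnb2*, which encodes a pore-forming Kv2 subunit. *Kcnb2* was at 1.32, 1.31 and 1.12 FPKM in the Con. libraries, 1.39, 1.57 and 1.40 FPKM in the PTZ libraries, and 0.641 and 1.44 FPKM in Q808-1 and Q808-2. The PTZ and Con. libraries did not overlap, although the means of 1.45 ± 0.0992 FPKM (SD, n = 3) and 1.25 ± 0.112 FPKM (SD, n = 3) were close, with a log2 difference of 0.20 and a standard error of 0.24. Q808-1 was the lowest and lay apart from the other 7 libraries.

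*Kcnq3* and *Kcnq5* encode Kv7.3 and Kv7.5, which are subunits of M-channels. *Kcnq3* was at 13.7, 22.1 and 18.7 FPKM in the Con. libraries, 14.02, 17.0 and 7.80 FPKM in the PTZ libraries, and 12.02 and 15.7 FPKM in the Q808 libraries. The groups overlapped, and PTZ-3 was the lowest library. The log2 difference between the PTZ and Con. groups was -0.53 with a standard error of 0.32, but it was -0.18 in the libraries with low striatum markers and -1.25 between PTZ-3 and Con.-3. *Kcnq5* was at 20.6, 24.9 and 35.2 FPKM in the Con. libraries, 21.0, 23.8 and 18.7 FPKM in the PTZ libraries, and 12.5 and 25.7 FPKM in the Q808 libraries. Its difference between the PTZ and Con. groups was -0.32 with a standard error of 0.21 in all libraries and -0.02 in those with low striatum markers, where the Con. and PTZ values lay within 20.6 to 24.9 FPKM. Q808-1 was the lowest library for *Kcnq5* and Con.-3 the highest, and without Q808-2 the difference from the Con. group was -1.06, against -0.55 with both Q808 libraries.

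*Kcna1* and *Kcna2* encode Kv1.1 and Kv1.2, which assemble together at axons and nerve terminals. *Kcna1* varied widely within the groups, at 11.2, 19.9 and 29.2 FPKM in the Con. libraries and 20.9, 32.5 and 12.5 FPKM in the PTZ libraries, and it was 19.5 and 19.0 FPKM in the Q808 libraries. The groups overlapped almost completely. The log2 difference between the PTZ and Con. groups was 0.13 with a standard error of 0.44 in all libraries, but 0.80 in the libraries with low striatum markers and -1.22 between PTZ-3 and Con.-3. *Kcna2* was steadier, at 13.6, 17.8 and 17.6 FPKM in the Con. libraries, 14.7, 14.6 and 9.54 FPKM in the PTZ libraries and 13.0 and 16.2 FPKM in the Q808 libraries. Its difference between the PTZ and Con. groups was -0.35 with a standard error of 0.22, and -0.09 in the libraries with low striatum markers. The ratio of *Kcna1* to *Kcna2* was lowest in Con.-1 at 0.824 and highest in PTZ-2 at 2.23, with group means of 1.20 (Con.), 1.65 (PTZ) and 1.33 (Q808).

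**Figure D3:**
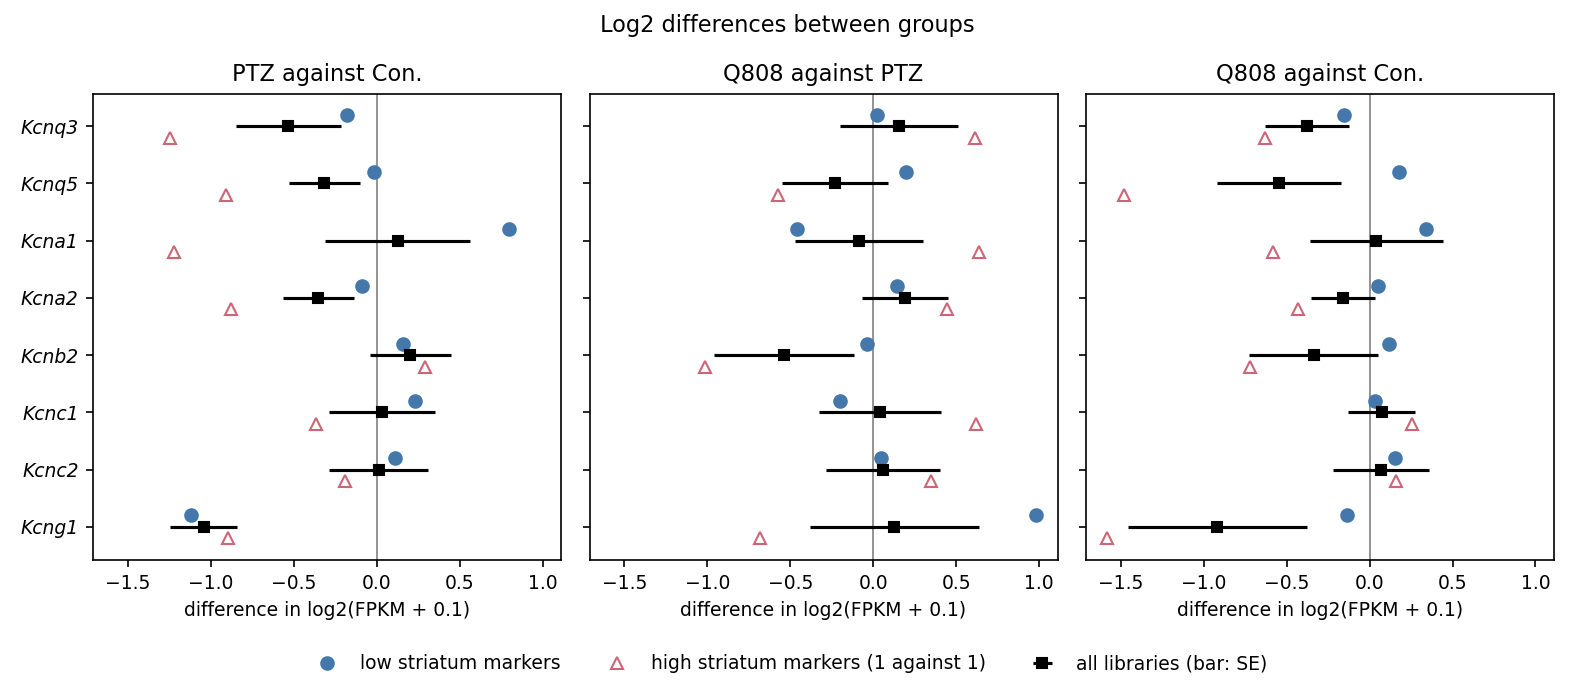
Differences in log2(FPKM + 0.1) of the 8 channel genes (x axis) in the 3 comparisons. Squares with bars are the limma estimates with standard errors over all libraries of both groups, circles are the libraries with low striatum markers and open triangles 1 library against 1 with high striatum markers. For PTZ against Con., the 3 values of *Kcng1* lie close together, from -1.12 to -0.90, while those of *Kcna1* lie on both sides of 0.

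*Kcnc1* and *Kcnc2* encode Kv3.1 and Kv3.2, the channels that repolarize fast-spiking cells quickly. The RefSeq windows from 250 bases before to 50 after a start site on GRCr8 are shown for both, since their levels ran in parallel while their promoter sequences differ, with GC boxes (GGGCGG, read on either strand) in capitals. *Kcnc1* lies at chr1:106038997-106039296 and *Kcnc2* at chr7:49587364-49587663, both on the plus strand.
Kcnc1: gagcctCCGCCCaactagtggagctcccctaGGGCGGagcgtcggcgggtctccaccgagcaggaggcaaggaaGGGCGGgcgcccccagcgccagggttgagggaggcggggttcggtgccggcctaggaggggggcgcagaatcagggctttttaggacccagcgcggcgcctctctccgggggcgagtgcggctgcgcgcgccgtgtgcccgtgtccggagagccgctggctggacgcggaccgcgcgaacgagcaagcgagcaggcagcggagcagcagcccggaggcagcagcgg
Kcnc2: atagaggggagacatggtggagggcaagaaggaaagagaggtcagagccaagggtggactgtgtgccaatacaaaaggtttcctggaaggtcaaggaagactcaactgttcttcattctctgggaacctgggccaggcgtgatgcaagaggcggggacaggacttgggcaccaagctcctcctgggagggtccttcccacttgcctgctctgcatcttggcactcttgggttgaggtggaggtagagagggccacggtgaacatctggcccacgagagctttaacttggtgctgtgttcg
The *Kcnc1* window held 3 GC boxes and 36 CG pairs with a GC content of 74.0%, and the *Kcnc2* window held no GC box and 5 CG pairs with a GC content of 56.0%. Of all 33469 windows of this length, 33.1% held a GC box, and the median window had 7 CG pairs and a GC content of 51.7%. A window was at hand for 4 of the 8 genes, and those of *Kcna2* and *Kcnq5* held 4 and 2 GC boxes. None of the windows of these 4 genes held a TATA box (TATAAA, in 14.2% of all windows), a cyclic AMP response element (TGACGTCA, 1.83%) or an AP-1 site (TGANTCA, 7.33%) on either strand. The last pair of motifs share their outer letters, but neither contains the other.

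*Kcnc1* was at 17.8, 19.7 and 13.9 FPKM in the Con. libraries, 18.8, 25.9 and 10.7 FPKM in the PTZ libraries and 16.6 and 19.2 FPKM in the Q808 libraries. *Kcnc2* was at 9.13, 12.2 and 7.25 FPKM in the Con. libraries, 10.6, 12.3 and 6.34 FPKM in the PTZ libraries and 8.12 and 11.8 FPKM in the Q808 libraries. For both genes the 3 groups overlapped and the 3 libraries with high striatum markers were the lowest of the 8. Pooled log2 differences lay between 0.01 and 0.07 in all 3 comparisons for both genes, with standard errors of 0.20 to 0.37, so that at this spread differences well above these could not be seen. The ratio of *Kcnc1* to *Kcnc2* stayed between 1.61 and 2.10, with means of 1.82, 1.85 and 1.83 in the Con., PTZ and Q808 groups. *Pvalb*, the calcium-binding protein of fast-spiking interneurons, was at 25.4 to 46.8 FPKM in the Con. libraries, 31.7 to 63.1 FPKM in the PTZ libraries, and 118 and 45.9 FPKM in Q808-1 and Q808-2. Q808-1 was thus the highest library for *Pvalb* and among the 3 lowest for *Kcnc1* and *Kcnc2*. The summed level of 8 interneuron markers was 275 to 586 FPKM in the Con. group, 356 to 576 FPKM in the PTZ group and 344 to 441 FPKM in the Q808 group, with *Npy* listed at 0 in all libraries, and its part in these levels was not tested.

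Counted over the comparisons, 1 of the 8 genes (*Kcng1*, lower) was called between the PTZ and Con. groups at a limma p-value below 0.05 before adjustment with a change above 1.5-fold, where 2.53% of the 15593 genes tested were called (395 genes, 616 with the replicate number as a block). *Kcng1* and *Kcnb2* had groups that did not overlap, against 9.15% of all genes. The genes were chosen with these values known, so that the counts are a description. After adjustment, limma gave 0 of the 15593 genes a p-value below 0.05, and before it 589. Without the libraries with high striatum markers, PTZ-1 and PTZ-2 were set against Con.-1 and Con.-2, and 140 genes passed after adjustment. Among them was *Kcne2* of the further genes, with a log2 difference of -2.48 (limma, adjusted p = 0.0467). Summed choroid plexus markers were 408 and 277 FPKM in these PTZ libraries and 2528 and 2504 FPKM in these Con. libraries. Group and choroid plexus level cannot be told apart in this fit. Over all libraries of both groups, the median log2 difference of the 8 genes was -0.15, beside -0.04 over all genes, with 4 genes lower and 4 higher. Without the libraries with high striatum markers, *Kcng1* was again the only one of the 8 that was called, where 9.81% of all genes were called.

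Between the Q808 and PTZ groups, none of the 8 genes was called by limma (0 at an unadjusted p-value under 0.05), where 1.92% of all genes were called (212 higher and 88 lower, or 130 and 142 after quantile normalization), and none had groups that did not overlap, against 15.6% of all genes. With a lone library in the Q808 group, *Kcng1* differed in opposite directions. The difference was 0.98 without the libraries with high striatum markers and 1.03 without Q808-1, but -0.77 without Q808-2. For *Kcnq5* it was -0.75 without Q808-2. The median log2 difference of the 8 genes was 0.05, beside 0.10 over all genes. Between the Q808 and Con. groups, again 0 genes were called (0 at an unadjusted limma p-value under 0.05), where 3.46% of all genes were called (479 higher and 61 lower, or 283 and 158 after quantile normalization), and 0 had groups that did not overlap, against 20.0%. Here *Kcng1* passed the call rule at -1.03 with the replicate block and -1.06 with the choroid plexus covariate. The gene was chosen with these values known, so that this is a description. Its difference ran from -1.82 (without Q808-2) to -0.02 when each library was left out in turn. With Q808-1 as the lone Q808 library, *Kcnq5* differed by -1.06. The median log2 difference was -0.25, beside 0.04 over all genes. Both comparisons with the PTZ group share the PTZ libraries, and both comparisons with the Con. group share the Con. libraries.

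A list of 39 further genes was made by family and not by how they changed, though with earlier results of these data known. It held the other Kv1, Kv2, Kv3 and Kv7 subunits, the silent subunits, the beta subunits, the KCNE subunits and 10 genes of channel anchors and partners. Of the 39 genes, 34 passed the limit on FPKM. Between the PTZ and Con. groups, 1 of the 34 was called lower and 0 higher, where 2.53% of all genes were called. The median log2 difference of the 34 was -0.12. The called gene was *Kcns2*, which encodes Kv9.2, another silent subunit that modifies Kv2 channels. It was at 7.59, 9.70 and 14.7 FPKM in the Con. libraries and 5.87, 7.60 and 3.65 FPKM in the PTZ libraries. Only PTZ-2 reached into the range of the Con. libraries, at 7.60 against 7.59 FPKM. The log2 difference was -0.90 with a standard error of 0.34 (limma, unadjusted p = 0.0332, adjusted p = 0.999, from 0.366 to 1.00 over its alternatives). It was -0.36 in the libraries with low striatum markers and -1.98 between PTZ-3 and Con.-3, and was not called in the former. The call was also lost without Con.-2 (-0.94), Con.-3 (-0.64), PTZ-1 (-0.95) or PTZ-3 (-0.61).

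Between the Q808 and Con. groups, 3.46% of all genes were called and 20.0% had groups that did not overlap. *Kcns2* remained low in the Q808 libraries, at 4.57 and 6.21 FPKM, both below all Con. libraries. It was the single gene of the 34 that was called between the Q808 and Con. groups, with a log2 difference of -0.93 and a standard error of 0.32 (limma, unadjusted p = 0.0305, adjusted p = 0.901, from 0.212 to 1.00 over its alternatives), and 0 were higher. Without the libraries with high striatum markers the difference was -0.46 and it was not called, nor was it without Con.-2 (-0.97) or Q808-1 (-0.72).

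Between the Q808 and PTZ groups, *Kcna4* and *Kcnv1* were called lower and *Kcne2* higher, 3 of the 34 genes. Over all genes, 1.92% were called in this comparison and 15.6% had groups that did not overlap. The median log2 difference over the list was -0.03. *Kcnv1* encodes the silent subunit Kv8.1 and was at 19.4, 20.5 and 24.2 FPKM in the PTZ libraries and 13.7 and 13.5 FPKM in the Q808 libraries. The groups did not overlap, and the log2 difference was -0.64 with a standard error of 0.18 (limma, unadjusted p = 0.0107, adjusted p = 0.952, from 0.320 to 1.00 over its alternatives). The Con. libraries were at 15.9, 18.3 and 29.1 FPKM, and reached above all PTZ libraries. *Kcna4*, which encodes the A-type subunit Kv1.4, was at 7.79, 8.94 and 6.40 FPKM in the PTZ libraries and 4.56 and 5.15 FPKM in the Q808 libraries. Its log2 difference was -0.65 with a standard error of 0.24 (limma, unadjusted p = 0.0354, adjusted p = 0.952, from 0.367 to 1.00 over its alternatives), and the Con. libraries were at 4.55, 5.66 and 13.5 FPKM, the last of which was the highest of all 8. The *Kcna4* call was lost in 8 of 18 alternatives. These were without PTZ-1 (-0.63), PTZ-2 (-0.53), Q808-1 (-0.56) or Q808-2 (-0.73), with a pseudocount of 1 (-0.57), with all 3 groups in 1 fit, with the choroid plexus covariate (-0.66) and at 2-fold. The *Kcnv1* call was lost without PTZ-3 or with the replicate block (-0.55 in both), without the libraries with high striatum markers (-0.56) and at 2-fold.

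*Kcne2*, an accessory subunit known from choroid plexus epithelium, was at 0.701, 1.17 and 1.77 FPKM in the PTZ libraries and 2.19 and 12.3 FPKM in the Q808 libraries. The log2 difference was 2.10 with a standard error of 0.76 (limma, unadjusted p = 0.031, adjusted p = 0.952, from 0.174 to 1.00 over its alternatives). In the Con. libraries *Kcne2* was at 6.69, 4.54 and 0.819 FPKM, so that its 3 highest libraries were the 3 with the highest choroid plexus markers, Q808-2, Con.-1 and Con.-2. With the choroid plexus list as a covariate the difference was 1.29, still past the threshold, whereas without Q808-2 it was 0.88 and the call was lost, as it was without PTZ-1 (1.79) or PTZ-2 (2.12). The *Kcne2* call was also lost with no filter and with all 3 groups in 1 fit.

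Set against the division by striatum markers, all 8 genes had a lower mean log2 level in the 3 libraries with high markers than in the other 5. Of all 15593 genes, 6266 were lower, and of the 34 further genes 18. The median log2 difference of the 8 was -0.43, beside 0.10 over all genes and -0.14 over the 34 further genes. Single genes ran from -0.70 (*Kcng1*) to -0.03 (*Kcna1*). The 3 libraries did not move alike, as *Kcnq5* was highest of the 8 libraries in Con.-3 (35.2 FPKM) and lowest in Q808-1 (12.5 FPKM). The division was made from the striatum markers after their values were seen, and no test was made. *Kcnc1* and *Kcnc2* were the only ones of the 8 whose sets did not overlap, both lower, where 9.59% of all genes were lower without overlap and 15.2% higher. *Kcnc1* had a mean of 13.7 FPKM in the 3 libraries and 20.3 FPKM in the other 5, and *Kcnc2* 7.24 and 11.2 FPKM. *Kcnc4*, which encodes another Kv3 subunit, was at 7.51 to 10.4 FPKM against 23.2 to 34.8 FPKM and differed by -1.73 on the log2 scale.

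Among the 34 further genes, 8 were lower and 6 higher in the 3 libraries without overlap, where 9.59% of all genes were lower and 15.2% higher. The lower ones included *Kcng2*, a silent Kv2 modifier, at 0.879 to 1.83 FPKM against 6.26 to 12.1 FPKM, *Kcnab2*, a Kv1 beta subunit, at 58.0 to 75.6 FPKM against 143 to 185 FPKM, and *Lgi1*, a secreted partner of Kv1 channels, at 23.7 to 49.3 FPKM against 63.6 to 91.4 FPKM. The higher ones included *Kcna5*, at 4.12 to 9.99 FPKM against 0.349 to 1.42 FPKM, and *Kcna6*, at 30.3 to 44.9 FPKM against 16.5 to 21.3 FPKM. Markers of other cells moved with the same division, so that the summed level of 6 general neuron markers was 1072 to 1638 FPKM in the 3 libraries and 1867 to 2184 FPKM in the other 5, and that of 8 oligodendrocyte markers 6962 to 13758 FPKM against 2681 to 4463 FPKM. Their part in the channel levels was not tested.

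**Figure D4:**
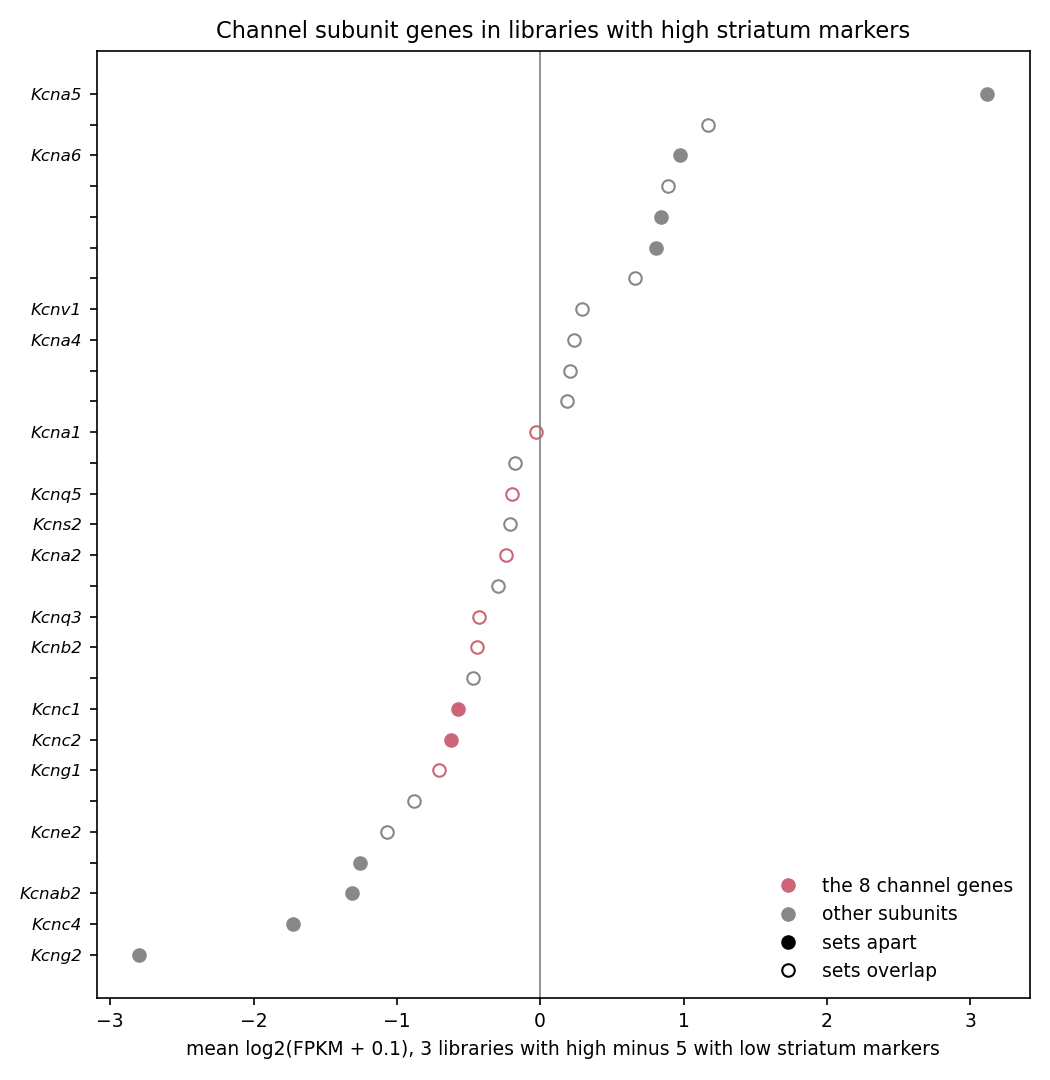
Difference in mean log2(FPKM + 0.1) between the 3 libraries with high and the 5 with low striatum markers (x axis) for the 8 channel genes in red and 21 other channel subunit genes in grey, with the genes described in the text named on the y axis. Filled points are genes whose 2 sets of libraries do not overlap. The 8 genes lie between -0.70 for *Kcng1* and -0.03 for *Kcna1*, with *Kcnc1* and *Kcnc2* filled.

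Over the 8 libraries, the closest pair among the 8 genes was *Kcnq3* and *Kcna2*, with a Pearson correlation of log2(FPKM + 0.1) of 0.96 across 8 libraries and 0.85 across the 5 with low striatum markers. *Kcnc1* and *Kcnc2* followed, at 0.92 and 0.65. These points share the striatum division and 5 or 8 libraries in all, so that the values are descriptions. Across the 5 libraries *Kcng1* ran against *Kcnb2* at -0.75, *Kcnc1* at -0.59 and *Kcna1* at -0.58, and with *Kcna2* at 0.62. Among the 12563 genes with a mean of at least 1 FPKM, the nearest to *Kcng1* were *Chic1* at 1.00 across 8 libraries and 0.99 across 5, and *Mtmr3* at 0.99 across both. *Chic1* ran only from 5.598 to 8.97 FPKM and *Mtmr3* from 15.3 to 19.4 FPKM, while *Kcng1* varied 4.65-fold between its highest and lowest library.

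The 2 nearest genes of each gene were picked from 12563 by correlation over 8 libraries, so that high values follow in part from the search. The nearest genes to *Kcnq5* were *Pacs1* and *D430041D05Rikl*, at 0.99 and 0.98, and those to *Kcnq3* were *Exoc8* at 0.97 and *Kcna2*. *Dennd5b* and *Foxo3* were nearest to *Kcna1*, at 0.98 and 0.97, and *Kcnq3* and *Gapvd1* to *Kcna2*, both at 0.96. For *Kcnb2* they were *Rtn1* and *Ap2m1*, at 0.99 and 0.98, which dropped to 0.88 and 0.63 across the 5 libraries. *St8sia1* was among the 2 nearest genes of both *Kcnc1* and *Kcnc2*, at 0.96 and 0.97, next to *Cerk* for *Kcnc1* at 0.97 and *Rap1gap2* for *Kcnc2* at 0.98. Across the 5 libraries *St8sia1* stood at 0.80 with *Kcnc2*, *D430041D05Rikl* at 0.845 with *Kcnq5* and *Gapvd1* at 0.88 with *Kcna2*. Apart from these, *Kcnq3* with *Kcna2* and the 2 genes of *Kcnb2*, the pairs named here stood at 0.94 to 0.99 across the 5.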

How the data were processed

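Hippocampal RNA of 8 rats was sequenced. Reads were trimmed (Trimmomatic), and each deposited FPKM is the Cufflinks estimate for 1 gene, as the authors describe. HISAT2 is among the tools named in the labels, and the genome build and strand setting are not given in the sources used here. The HTSeq counts were not used here, so that the counting error within the FPKM was not modelled. Symbols came from RefSeq (GRCr8), used for names and promoter windows.

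All comparisons were fitted with limma 3.58.1 (R 4.3.3, empirical Bayes with a trend, two-sided) to log2(FPKM + 0.1) of 15593 genes (mean FPKM of 0.1 or more), using the 2 groups compared, with Benjamini-Hochberg adjustment over all genes. The change of low genes is understated on this scale. A call needed p below 0.05 before adjustment and a change above 1.5-fold. The procedure was run on simulated data with independent noise for each gene. These data held no striatum or choroid plexus differences shared between genes, so that they could not test the procedure against them. Groups came from the library titles. Other work used Python 3.11.15, numpy 2.4.6, pandas 2.3.3 and matplotlib 3.10.9.

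The 8 genes and all lists were chosen with earlier results of these data known. Genes named in the text were these 8, list genes that were called, marker genes and the 2 genes closest to each of the 8. *Kcnc4*, *Kcng2*, *Kcnab2*, *Lgi1*, *Kcna5* and *Kcna6* were chosen after their values were seen. Some genes of the lists are counted but not reported here by name. Depth was compared through genes below 0.03 FPKM in both libraries, of which 54.8% to 63.3% stood at the commonest ratio to Con.-2. Relative depth is thus approximate.

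Replicate numbers, which come from the labels and belong to different rats, were checked for pairing: the deviations of same-numbered Con. and PTZ libraries correlated at 0.21 (1), 0.30 (2) and 0.42 (3) over genes. The third pair shares high striatum markers. Of the differently numbered pairs, PTZ-1 with Con.-2 stood at 0.32 and PTZ-2 with Con.-1 at 0.10. Pairs of a library with low and one with high striatum markers stood between -0.43 and -0.21. The alternatives were other pseudocounts, filters, scalings, covariates, the replicate block, all groups in 1 fit, no trend, a 2-fold threshold and each library left out in turn.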

Additional observations from a re-analysis of the deposited data

How the results depend on the processing

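*Kcng1* between the PTZ and Con. groups was between -1.16 and -0.86 over the alternatives, given as a description since the gene was chosen with these values known. Of 416 values of the 8 genes under alternatives, 415 moved by less than 1 SD within the groups. Other filters, no trend and all groups in 1 fit cannot change a fitted difference, yet are among the 415. By this SD, *Kcng1* between Q808 and PTZ counted as unmoved from -0.77 to 1.03. The count is therefore no measure of stability. *Kcnq5* between Q808 and Con. became 0.18 without the libraries with high striatum markers. The median log2 difference of the 8 between Q808 and Con. then became 0.084 (from -0.25). Leaving out 1 library at a time, the medians ran from -0.36 to 0.04 (PTZ against Con.), -0.26 to 0.30 (Q808 against PTZ) and -0.44 to 0.01 (Q808 against Con.).

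Genes called between PTZ and Con. (395) numbered 219 with a pseudocount of 1, 191 at 2-fold, 1530 without the libraries with high striatum markers and 630 with the striatum covariate. Between Q808 and PTZ (300) they numbered 193 with a mean of at least 1 FPKM, 183 at 2-fold, 1444 without those libraries, 538 with the striatum and 507 with the choroid plexus covariate. Between Q808 and Con. (540) they numbered 340 with a pseudocount of 1, 257 at 2-fold, 1144 with the striatum and 1758 with the choroid plexus covariate. Without 1 library they ran from 249 (PTZ-2) to 1135 (PTZ-3), from 132 (PTZ-1) to 1569 (PTZ-3), and from 279 (Con.-2) to 1799 (Q808-2). The count also moved by over 1.5 times without Con.-3 (639, PTZ against Con.), PTZ-2 (149) and Q808-2 (1301, both Q808 against PTZ), and Q808-1 (351, Q808 against Con.).

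Of the 34 further genes, 1 was called between PTZ and Con., against 0 with no filter, quantile normalization, median ratio scaling or 2-fold, 3 without the libraries with high striatum markers, 2 with the choroid plexus covariate and 0 to 2 without 1 library. Between Q808 and PTZ 3 were called, against 1 with all 3 groups in 1 fit or at 2-fold and 1 to 7 without 1 library. Between Q808 and Con. 1 was called, against 0 at 2-fold, 3 without the libraries with high striatum markers, 4 with either covariate and 0 to 8 without 1 library. A lone library in a group was assumed to vary like the other group. The causes were not tested.

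The fit with a replicate block called 616 genes between PTZ and Con., 1894 between Q808 and PTZ and 1076 between Q808 and Con., and 5 and 3 of the further genes in the last pair of comparisons. Between PTZ and Con. the block changed no call of the 8 or the further genes, and between Q808 and Con. it added *Kcng1* (-1.03). The Q808 group shares only numbers with the others, with correlations of -0.30 and 0.32 with PTZ and -0.38 and 0.53 with Con. libraries.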
